A study of Rattus norvegicus with 4 samples.

Results

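ATP-binding cassette (ABC) transporters and lipid flippases were described across 4 RNA-seq libraries of rat choroid plexus and kidney proximal tubule. The members were all genes in the study's lists for choroid plexus, sorted cells and proximal tubule whose names begin with a prefix of the ABCA to ABCG subfamilies, of the ATP8A, ATP8B, ATP9, ATP10 and ATP11 subfamilies or of TMEM30. This gave 33 of the 32883 gene IDs in the files. Of these, 22 were ABC transporters (7 ABCA, 3 ABCB, 8 ABCC and 4 ABCG), 10 were P4-ATPases, the family that holds the flippases, and 1 was TMEM30A. No gene of the ABCD, ABCE or ABCF subfamilies was in these lists as available here, and ABC transporters outside them were not analysed. The list of all choroid plexus genes was not complete as available. It named 6 of the members, against 31 in the male transporter list. Absence of a gene or subfamily from the members is therefore not a result about the tissue. The lists hold genes that reached 0.5 TPM (transcript abundance per length, scaled to a total of 1000000 in each library) in male choroid plexus, sorted cells or proximal tubule, so the number of members detected was largely set by the choice. The study's transporter lists were also filtered by annotation for the plasma membrane. They left out genes annotated to other compartments, such as the mitochondrion or the Golgi apparatus. A gene missing from them therefore need not lie below 0.5 TPM, and ranks below are among the listed members only.

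All animals were Sprague Dawley rats aged 9 weeks. Choroid plexus of 5 males and of 5 females was pooled into 1 library each. A further library was made from male choroid plexus of 10 rats, dissociated with collagenase and sorted by FACS with an antibody against NKCC1, a cotransporter of the choroid plexus epithelium. Proximal tubules of 5 male rats, collected by hand after enzymatic digestion of the kidney, gave the last library. The methods of the study say that the kidneys came from the male rats, so this pool and that of the male choroid plexus may share animals. With 1 library per condition, no difference has a replicate check and no p-value can be given. The counting intervals below are exact 95% Poisson intervals, or exact conditional intervals for ratios, and cover counting error only.

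ABC transporters use ATP to move lipids, sterols, drugs and conjugated metabolites across membranes. P4-ATPases flip phospholipids from the outer to the inner leaflet of a membrane and so keep phosphatidylserine inside the cell, and most of them leave the endoplasmic reticulum only with a CDC50 protein such as TMEM30A (CDC50A) as partner. The choroid plexus epithelium separates blood from cerebrospinal fluid, and its ABC transporters are known as part of that barrier.

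The libraries held 23873318 to 28324976 expected counts. The 13 mitochondrially encoded genes took 4.32 to 5.34% of the counts in the 3 choroid plexus libraries and 70.7% in the proximal tubule library, which left 7352952 counts there. TPM of the choroid plexus libraries are given as deposited, except in the comparison with the proximal tubule, where both were rescaled. Rescaled, ATP11B in the male, for example, had 10.9 TPM in place of 10.0. TPM of the proximal tubule are given after removal of the mitochondrially encoded genes and rescaling. Its values had a second feature: 504 and 492 genes had 40 to 50 and 50 to 60 counts, against 155 genes with 1 to 10, and widely expressed genes such as clusterin (CLU), prosaposin (PSAP), LRP1, NR1H2 and SCARB2 were listed at 0. A 0 there may therefore not be an absence of transcript. It is reported as listed at 0, with no TPM fold and no counting interval, and the 2-fold counts for this library, which take such genes at 0 with the pseudocount, are split by it. Transthyretin (TTR), the main secreted protein of the choroid plexus, stood at 238565 TPM in the male, 285892 in the female and 389655 in the sorted library, and at 0.07 as deposited in the proximal tubule. In the sorted library all 6 of 6 immune markers were higher relative to the median gene (summed TPM 5239 against 942 in the male choroid plexus), with a median log2 ratio of 2.7. Of the epithelial markers 1 of 10, TTR, was higher and none was lower, and their median was -0.04. The sorted library was thus not depleted of immune transcripts.

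At the cut-off of 0.5 TPM, the male library held 31 of the 33 members, the female 29, the sorted cells 31 and the proximal tubule 10. Of all 32883 IDs, 13598, 13401, 13112 and 6097 reached it in these libraries. Members were chosen by this cut-off in the male, sorted and tubule libraries, so their counts were largely set by the choice. Together the members made up 1215 TPM in the male, 982 in the female, 715 in the sorted and 206 in the proximal tubule library. In the male choroid plexus the P4-ATPases accounted for 43.2% of this sum, the ABC transporters for 38.0% and TMEM30A for 18.8%. In the proximal tubule the ABC transporters held 82.5%, nearly all of it ABCG2.

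**Figure D1:**
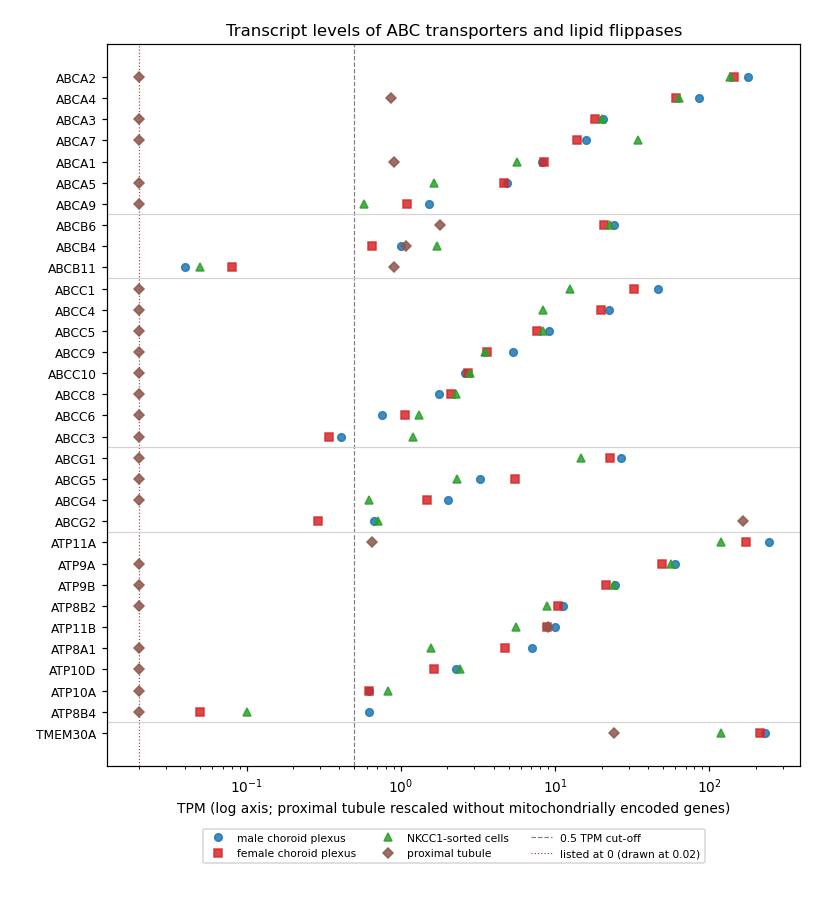
Transcript level in TPM (log axis) of the members named in the text in the 4 libraries, 1 point per library, ordered within subfamilies by the male choroid plexus; the dashed line is 0.5 TPM and members listed at 0 are drawn at 0.02. ATP11A, TMEM30A and ABCA2 lead in the male choroid plexus, whereas ABCG2, at 0.67 TPM there, reaches 164.5 TPM in the proximal tubule.

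ATP11A (ENSRNOG00000017154), a plasma membrane flippase for phosphatidylserine and phosphatidylethanolamine, was the highest member in the male choroid plexus. It stood at 242 TPM in the male (counting interval 240 to 245), 171 in the female, 118 in the sorted cells and 0.65 in the proximal tubule. The male value exceeded that of 96.7% of the detected genes.

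TMEM30A (ENSRNOG00000010895), its partner subunit, had 229 TPM in the male, 212 in the female, 119.5 in the sorted cells and 24.1 in the proximal tubule. It was the highest member in the female library and the second in each of the other 3, although in the sorted cells its counting interval overlapped that of ATP11A.

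ATP9A and ATP9B, P4-ATPases of endosomes and the trans-Golgi network that do without TMEM30A, varied little among the choroid plexus libraries. ATP9A had 59.7 TPM in the male, 49.5 in the female and 56.7 in the sorted cells, and ATP9B 24.5, 21.3 and 24.1. Their ratio was 2.44, 2.32 and 2.36 in these libraries, with overlapping counting intervals. Both were listed at 0 in the proximal tubule.

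The other P4-ATPases described here were lower. ATP8B2, described as a phosphatidylcholine flippase, had 11.2 TPM in the male, 10.5 in the female and 8.90 in the sorted cells, and was listed at 0 in the proximal tubule. The endosomal ATP11B had 10.0, 8.84 and 5.56 TPM in the choroid plexus libraries and 8.97 in the proximal tubule. It was the only P4-ATPase with a level in the tubule near that of the choroid plexus. ATP8A1, a phosphatidylserine flippase, had 7.06, 4.75 and 1.56 TPM and was listed at 0 in the tubule. ATP10D lay at 1.65 to 2.40 TPM in the choroid plexus libraries and ATP10A, a phosphatidylcholine flippase, at 0.62 to 0.83. ATP8B4 rested on 20, 2 and 4 counts, and its TPM of 0.62, 0.05 and 0.10 cannot be ordered with any firmness.

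The 8 listed P4-ATPases that need TMEM30A summed to 441 TPM in the male, 327 in the female, 171 in the sorted cells and 12.1 in the proximal tubule. TMEM30A divided by this sum was 0.52 in the male (0.51 to 0.53), 0.65 in the female (0.63 to 0.67), 0.70 in the sorted cells (0.68 to 0.72) and 2.0 in the proximal tubule. There was less partner transcript than summed transcript of these 8 in each choroid plexus library. The intervals of the 3 libraries did not overlap, but they cover counting error only. In the male, TMEM30A had an effective length of 1170 bases and ATP11A 6522, and the part of length in this ratio was not tested. ATP11A alone made up 55.0%, 52.4% and 69.2% of the sum in these libraries, and without it the ratio was 1.15, 1.36 and 2.27.

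**Figure D2:**
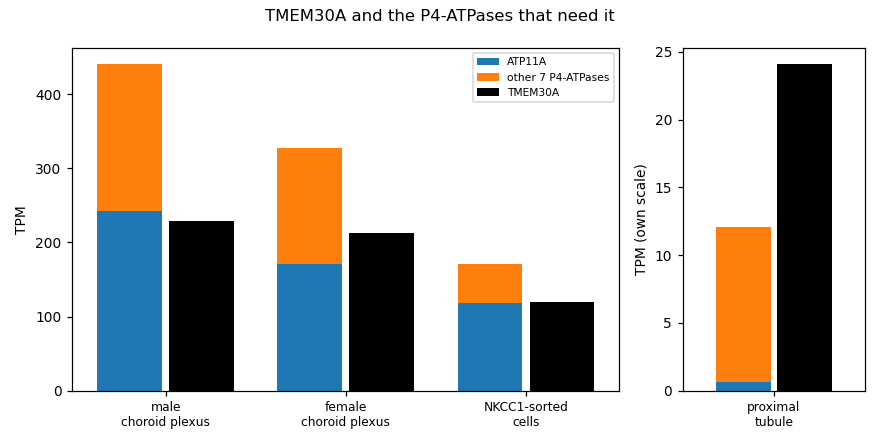
TPM of the 8 listed P4-ATPases that need TMEM30A (left bar, with the part of ATP11A below that of the other 7) beside TMEM30A (black bar) in each library; the proximal tubule has its own axis. The left bar is taller than the black bar in the 3 choroid plexus libraries, with ATP11A more than 50% of it, and lower in the proximal tubule.

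ABCA2 (ENSRNOG00000014268), a lipid transporter of late endosomes and lysosomes, was the highest of the listed ABC transporters in all 3 choroid plexus libraries. It stood at 178 TPM in the male (177 to 180), 144 in the female and 135 in the sorted cells, where it was the highest of all members, and was listed at 0 in the proximal tubule. ABCA4 (ENSRNOG00000012892), known from photoreceptors, where it clears retinoid conjugates of phosphatidylethanolamine, followed with 85.8, 60.6 and 63.6 TPM. Its level in the proximal tubule was 0.86 TPM, on 62 counts. ABCA2 exceeded ABCA4 by 2.08-fold in the male, 2.37-fold in the female and 2.12-fold in the sorted cells.

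ABCA3, a phospholipid transporter of lamellar bodies, had 20.5, 18.1 and 19.99 TPM in the male, female and sorted libraries. ABCA7, a phospholipid transporter linked to phagocytosis, had 15.9, 13.9 and 34.5 TPM. Both were listed at 0 in the proximal tubule. ABCA1, the cholesterol and phospholipid exporter to apolipoprotein A-I, had 8.2, 8.43 and 5.63 TPM and 0.90 in the proximal tubule. ABCA5 and ABCA9 lay between 0.58 and 4.90 TPM in the choroid plexus libraries.

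Among the sterol exporters of the ABCG subfamily, ABCG1, which loads cholesterol onto lipoproteins, led with 26.6 TPM in the male, 22.7 in the female and 14.7 in the sorted cells. ABCG4 had 2.02, 1.48 and 0.62 TPM. ABCG5, which exports plant sterols and cholesterol together with ABCG8, had 3.27, 5.49 and 2.31 TPM. All 3 were listed at 0 in the proximal tubule.

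Of the conjugate exporters of the ABCC subfamily, ABCC1 (MRP1), a carrier of glutathione and glucuronide conjugates, was the highest with 46.4 TPM in the male, 32.5 in the female and 12.5 in the sorted cells. ABCC4 (MRP4), which also carries cyclic nucleotides, had 22.2, 19.9 and 8.32 TPM, and ABCC5 (MRP5) 9.12, 7.60 and 8.30. ABCC10 lay at 2.59 to 2.80 TPM. ABCC3 (MRP3) stood below the cut-off in the male (0.41) and the female (0.34) and at 1.19 in the sorted cells, and ABCC6 (MRP6) had 0.76, 1.06 and 1.32 TPM. All 8 ABCC members were listed at 0 in the proximal tubule.

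ABCC8 (SUR1) and ABCC9 (SUR2) are not known to carry a substrate and serve as the regulatory subunits of ATP-sensitive potassium channels. ABCC9 had 5.33, 3.61 and 3.51 TPM and ABCC8 1.77, 2.10 and 2.28. Their pore-forming partners KCNJ8 and KCNJ11 had 3.42 and 5.64 TPM in the male and 4.48 and 7.02 in the sorted cells.

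ABCB6, a porphyrin transporter, was the highest ABCB member of the choroid plexus with 24.1, 20.7 and 22.8 TPM, against 1.79 in the proximal tubule. ABCB4, which moves phosphatidylcholine into bile, lay at 1.0, 0.65 and 1.72 TPM and at 1.08 in the proximal tubule. ABCB11, the bile salt export pump, had 5, 9 and 6 counts in the choroid plexus libraries, all below the cut-off, and 0.90 TPM on 45 counts in the proximal tubule.

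ABCG2 (BCRP, ENSRNOG00000007041), an exporter of urate and many drugs that is known from the apical membrane of the proximal tubule, had the opposite pattern. It had 37, 14 and 44 counts in the male, female and sorted libraries, which gave 0.67 TPM (0.47 to 0.92), 0.29 (0.16 to 0.49) and 0.71 (0.52 to 0.95). In the proximal tubule it had 3683 counts and 164.5 TPM. It was the highest member there, followed by TMEM30A.

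The promoters of ABCA2 and ABCA4, the leading listed ABC transporters of the choroid plexus, and of ABCG2, the leading member of the proximal tubule, are shown because the 3 genes stand at the ends of this contrast. Each window runs from 250 bases before to 50 after a gene's start in RefSeq, on the plus strand of build GRCr8, which is not the build of the counts. Capitals mark GGATTA, the core that OTX factors bind, and GGGCGG, the SP1 core, on either strand.
ABCA2, chr3:28642534-28642833: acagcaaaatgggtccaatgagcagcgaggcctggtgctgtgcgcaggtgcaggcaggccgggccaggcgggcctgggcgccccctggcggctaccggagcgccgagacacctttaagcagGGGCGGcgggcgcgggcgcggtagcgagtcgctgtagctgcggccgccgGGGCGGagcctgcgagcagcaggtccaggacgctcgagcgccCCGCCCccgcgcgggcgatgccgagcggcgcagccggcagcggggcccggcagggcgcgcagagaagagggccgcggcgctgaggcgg
ABCA4, chr2:212849235-212849534: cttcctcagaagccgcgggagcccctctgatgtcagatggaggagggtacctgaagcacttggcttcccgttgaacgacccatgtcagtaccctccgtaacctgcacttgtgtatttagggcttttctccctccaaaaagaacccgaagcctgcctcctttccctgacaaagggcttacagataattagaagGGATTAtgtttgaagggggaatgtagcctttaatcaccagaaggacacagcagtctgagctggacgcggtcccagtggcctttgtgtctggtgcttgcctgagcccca
ABCG2, chr4:89075224-89075523: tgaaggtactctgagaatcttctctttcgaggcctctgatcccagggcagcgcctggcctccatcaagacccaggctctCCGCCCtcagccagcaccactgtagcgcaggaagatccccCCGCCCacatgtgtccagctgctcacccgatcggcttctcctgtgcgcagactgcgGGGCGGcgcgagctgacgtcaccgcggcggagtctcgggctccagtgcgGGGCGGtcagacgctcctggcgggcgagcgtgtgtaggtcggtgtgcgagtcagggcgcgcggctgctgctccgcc
The window of ABCA4 held GGATTA once and no GGGCGG, that of ABCA2 held GGGCGG 3 times and that of ABCG2 4 times. They held 42 (ABCA2), 8 (ABCA4) and 29 (ABCG2) CG dinucleotides, against a median of 7 over all windows. Of the 33 members 27 matched a window, with 38 windows in all. GGATTA was in 3 of these 38 (ABCA4, ABCC9 and ATP9B) and in 7.17% of the 33469 windows of all genes. GGGCGG was in 22 of 38 and in 33.1% of all windows, and the TATA box core TATAAA in 6 of 38 and in 14.2%. GTTAAT, taken from the HNF1 site, was in 0 of 38 and in 7.45%. The motifs were picked with the levels of these genes known, and a match is a description of the letters only.

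The sorted cells were compared with the male choroid plexus to see which members were kept on sorting for NKCC1. Ratios were taken as log2 of TPM + 1 and set relative to the median of all genes tested, which was -0.58, and a member was counted as higher or lower when it was past 2-fold on this scale. Of 32 members tested, 3 were higher (10.9% of all 14024 genes were) and 3 were lower (6.03% of all genes), and the members' median was 0.20 above that of all genes. Neither share stood far from that of all genes. Not centred, 1 member was higher (4.61% of all genes) and 6 were lower (25.5%). In deposited TPM, 9 members were higher in the sorted cells and 23 lower, but the median gene was itself lower there, at -0.58. The share of all genes was not computed for this count, so it does not set the members apart. Sorting, enzyme treatment and a larger pool came together in this library and cannot be told apart, nor can fewer cells of a type and less RNA per cell.

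ABCC1 fell from 46.4 to 12.5 TPM, a 3.70-fold lower level (3.48 to 3.92) and a relative log2 ratio of -1.22. ATP8A1, on 508 and 119 counts, was 4.53-fold lower (3.70 to 5.57), with a relative log2 ratio of -1.07. Both were among the 3 members lower by the rule. With the female choroid plexus as the reference in place of the male, 1 member was lower, and neither ABCC1 nor ATP8A1 passed. ATP11A was 2.05-fold lower and TMEM30A 1.91-fold lower in TPM, which left them at -0.45 and -0.35 relative to the median gene.

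ABCA7 was the member furthest above the median gene, at 1.65, with 2.17-fold more TPM (2.06 to 2.30). Its counts rose less, from 2339 to 2868, or 1.45-fold in CPM (counts scaled to the library total), since RSEM gave it an effective length of 6008 bases in the male and 3189 in the sorted library. Among the 3 choroid plexus libraries it was the only member whose effective length differed by more than 1.5 times. With CPM in place of TPM, ABCA7 lay at 0.86 and was not higher by the rule. With the lengths of the male library used for both, an alternative chosen after the data were seen, ABCA7 lay at 0.80 and was not higher either. ABCC3 rose from 50 to 136 counts (2.90-fold, 2.08 to 4.10, relative log2 ratio 1.22). It was a member and tested only through its level in the sorted cells, so its direction was set by the choice. ABCB4 rose from 95 to 171 counts (1.72-fold, 1.33 to 2.23, relative log2 ratio 1.03). ABCB4 was no longer higher by the rule with cut-offs of 0.1 or 5 TPM, with a minimum of 10 expected counts, without a filter or without centring, and ABCC3 was not without centring, without a filter or with the cut-off of 5 TPM. ABCC6, at 0.98, lay just inside the 2-fold limits. The 6 immune markers had relative log2 ratios of 1.05 to 3.47 in the same library, and 2 of 5 endothelial and 2 of 6 mural and fibroblast markers were also higher. Their part in the values of ABCA7, ABCC3 and ABCB4 was not tested.

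ABCA2, ABCA4, ABCA3, ABCB6, ABCC5, ATP9A and ATP9B lay between 0.16 and 0.56 relative to the median gene, with 0.74 to 0.98 times the male TPM. Below the median gene were ABCC4, at -0.73 and 2.66-fold lower in TPM (2.47 to 2.88), and ABCG1, at -0.24 and 1.82-fold lower. Of 14 genes of sterol and phospholipid handling, 2 were higher, the lipid carrier APOE (236 to 1522 TPM, 3.27) and the lysosomal cholesterol carrier NPC2 (503 to 717.5 TPM, 1.09), and 0 were lower. Of 5 enzymes of drug metabolism, the conjugating GSTA4, GSTP1, GSTM1 and UGT1A6 and the hydrolase EPHX1, 0 were past 2-fold. They ran from -0.85 for GSTM1 to 0.68 for EPHX1. These names came from lists that favour genes high in the male choroid plexus.

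**Figure D3:**
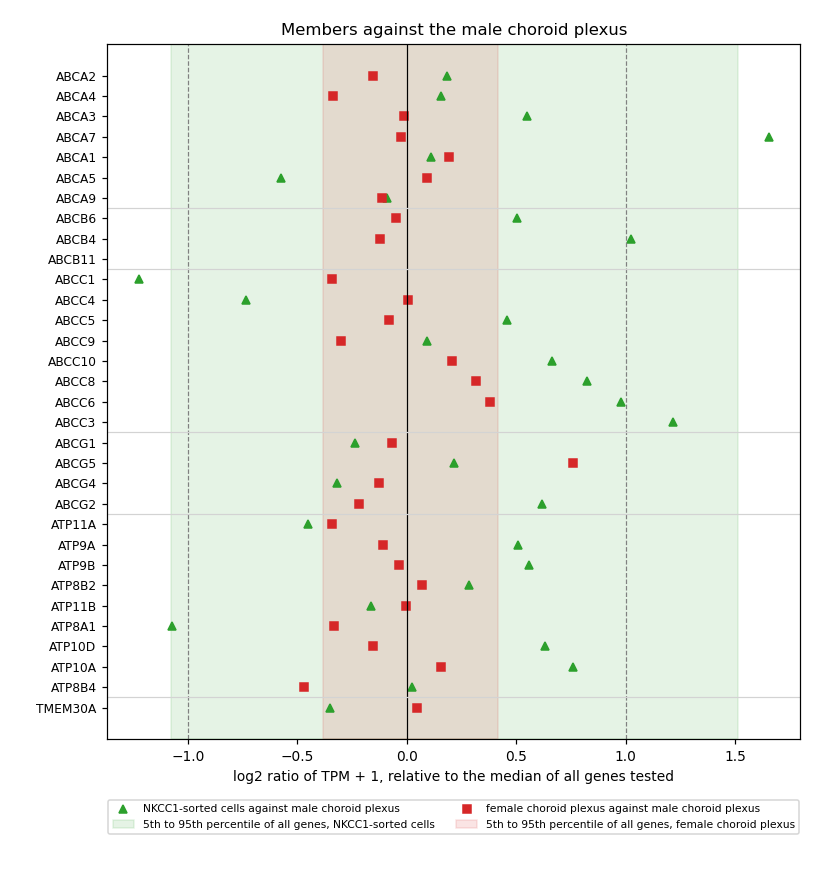
Log2 ratio of TPM + 1 of the members named in the text in the sorted cells (triangles) and the female choroid plexus (squares) against the male choroid plexus, relative to the median of all genes tested; shaded bands run from the 5th to the 95th percentile of all genes and dashed lines mark 2-fold. In the sorted cells ABCA7 lies above 1.52, the 95th percentile, and ABCC1 lies below -1.07, the 5th, while no female point passes 2-fold.

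Female and male choroid plexus were compared to see whether the members depended on sex. None of the 31 members tested was past 2-fold in either direction (0.62% of all 13869 genes were higher and 0.757% lower), relative to a median of -0.16. Both comparisons share the male library. The members lay between -0.47 for ATP8B4, on 2 counts against 20, and 0.76 for ABCG5. ABCG5 had 290 counts in the female and 176 in the male, 1.68-fold more TPM (1.39 to 2.04), and was the member furthest from the median gene. ABCC6 (0.38) and ABCC8 (0.32) were the next above it.

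Of the high members, ABCC1, ATP11A and ABCA4 stood lower in the female, at -0.34 each, with 0.70, 0.71 and 0.71 times the male TPM. ABCA2 stood at -0.15 and TMEM30A at 0.05. The immune markers were also lower in the female library (607 against 942 TPM in sum, median -0.41), with none of 6 past 2-fold. Their part in these values was not tested.

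The ratio between libraries moved with transcript length. For the female against the male library the median log2 ratio, not centred, went from -0.03 for genes under 1000 bases of effective length to -0.31 for those over 6000, and for the sorted cells from -0.44 to -0.87. The members were long, with a median of 4437 bases against 1836 for all genes in the female comparison. Centred on genes in the length range of the members, the members' median was 0.24 in place of 0.20 in the sorted cells and -0.04 in place of -0.07 in the female. The part of length in single values was not tested.

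**Figure D4:**
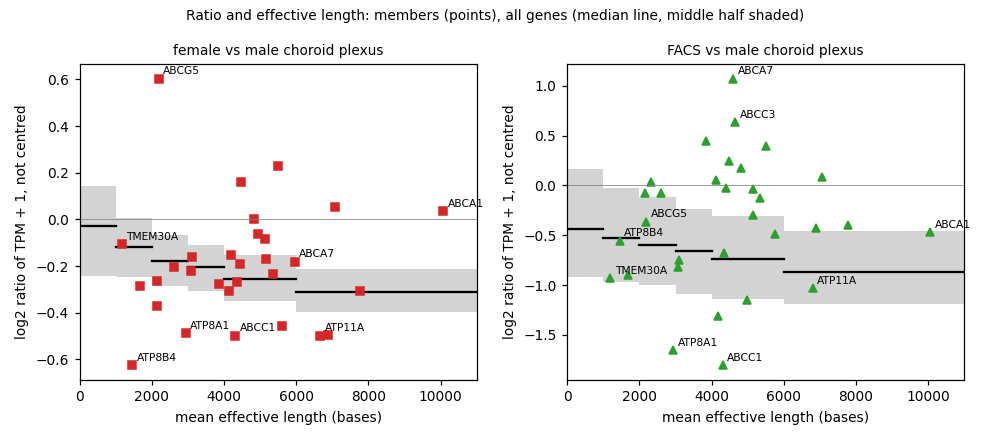
Log2 ratio of TPM + 1 (not centred) against mean effective length in bases for the members named in the text (points) in the female (left) and sorted (right) library against the male choroid plexus; black lines are medians and grey bands the middle 50% of all genes in each length bin. The median of all genes falls with length in both panels. Points outside the bands include ABCG5, ABCA1 and ATP11A in the left panel and ABCA7, ABCC1 and ATP8A1 in the right. As the bands hold only the middle 50% of genes, a place outside them is not unusual by itself.

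The proximal tubule, another epithelium that transports much fluid, was compared with the male choroid plexus after removal of mitochondrially encoded genes from both. Of the 31 members detected in the male choroid plexus, 22 (71.0%) were listed at 0 in the proximal tubule, against 58.3% of all genes detected in the former. Of the 10 members above 0, ABCG2 had 3683 counts, TMEM30A 369 and ATP11B 291, and the other 7, among them ABCB11, ABCB6, ATP11A, ABCB4, ABCA4 and ABCA1, had 45 to 94. No member had between 1 and 40 counts. The 6 markers of the proximal tubule were all higher in this library (8023 TPM in sum against 6.93), as were the 3 markers of other nephron segments (29.6 TPM against 0.56). Of the 10 choroid plexus epithelial markers 9 were lower and 5 were listed at 0.

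Relative to the median of all genes, which was -2.27, 7 of 32 members tested were higher (33.7% of all 14227 genes) and 15 were lower (34.7%). Not centred, 1 was higher (12.1% of all genes) and 25 were lower (71.0%). The member higher on both scales was ABCG2, with a relative log2 ratio of 8.85 and 225 times the male TPM. Of the other 6, ABCB11 (3.13) alone had more TPM in the proximal tubule. It was a member and tested only through its level there, on 45 counts, so its direction was set by the choice. As deposited, with mitochondrially encoded genes kept, it stood at 0.25 TPM in the tubule, below the cut-off. ABCB4 (2.26) and ATP11B (2.01) had 0.99 and 0.82 times the male TPM. ABCC6, ATP10A and ATP8B4 were listed at 0 and passed only through the centring.

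Of the 15 lower members, 10 were listed at 0 in the proximal tubule and their calls rest on that 0, and 5 were above 0. Of the 25 lower without centring, 19 were listed at 0. The 15 held each of the 12 members with 20 TPM or more in male choroid plexus, and ABCA7, ABCC5 and ATP8B2. Among those above 0 in the tubule, ATP11A stood at -5.06, ABCA4 at -3.40, TMEM30A at -1.05 and ABCB6 at -1.02. The last pair lay just past the limit. Of the 14 genes of sterol and phospholipid handling, 12 were lower (34.7% of all genes were). Of these 14, 9 were listed at 0, CLU and PSAP among them, against 58.3% of all genes detected in male choroid plexus. Of the 5 enzymes of drug metabolism 1 was higher and 1 lower. These names came from lists that favour genes high in the male choroid plexus. Lower levels in the tubule were thus largely set by the choice.

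**Figure D5:**
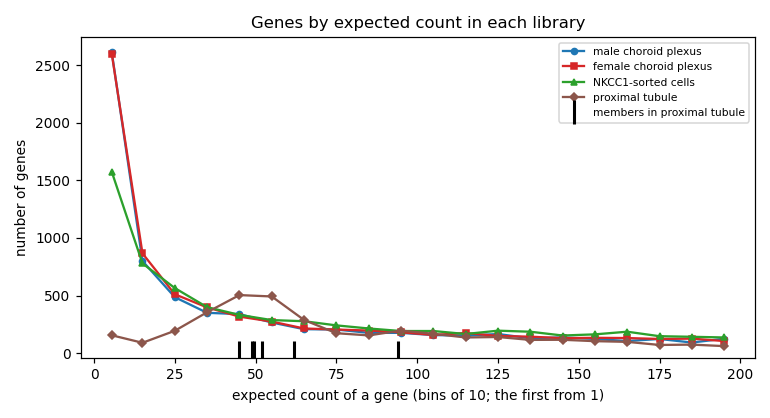
Number of genes by expected count (bins of 10 counts, the first from 1) in each library, with black ticks at the counts of the named members under 200 counts in the proximal tubule. The choroid plexus libraries fall steadily from the lowest bin, whereas the proximal tubule library peaks between 40 and 60 counts, where 4 of the 6 ticks lie.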

How the data were processed

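The authors sequenced the libraries (NEB Ultra RNA kit, paired-end NovaSeq) and used STAR 2.7.2a for alignment to Rnor_6.0, with Ensembl 103 as annotation, and RSEM 1.3.3 for quantification. Per gene, the deposited RSEM values are an expected count (estimated, so at times not whole), a TPM, an FPKM that was not used, and an effective length. The strand setting is not given in the sources used here, so overlapping antisense genes and close paralogues are uncertain. Gene names came from the lists of the study, which as available here name 2452 of the 32883 IDs. From the deposited TPM, log2 ratios with a pseudocount of 1 were computed over genes at or above 0.5 TPM in either library, relative to their median, and counted past 2-fold. The 13 mitochondrially encoded genes were taken out first wherever the proximal tubule was involved. Python 3.11.15, numpy 2.4.6, pandas 2.3.3, scipy 1.17.1 and matplotlib 3.10.9 were used. The ratio step was checked on counts simulated from the male choroid plexus profile, with the same lengths in both libraries. That check held no length trend and no tubule library, so it bears on the arithmetic only. Members, gene lists and motifs were chosen with earlier results of these data known. Members at or above 20 TPM in any library, or past 2-fold in any comparison, were to be told in full and the others by range, although more were given. Expected counts of 23873318 to 28324976 per library set the counting intervals. Promoters are from RefSeq (GRCr8), and no coordinates of Rnor_6.0 were used. Other pseudocounts, cut-offs, centrings, reference libraries, CPM and the removal of the highest genes were tried as alternatives. An item withheld from this text is counted in totals and sums but is otherwise not reported here.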

Additional observations from a re-analysis of the deposited data

How the results depend on the processing

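No paired analysis was possible because each condition has 1 library, and for the same reason no replicate could be left out. In the sorted cells against the male choroid plexus, the 3 members higher became 6 with a pseudocount of 0.1 TPM and 1 (ABCA7) with a cut-off of 5 TPM. With CPM in place of TPM the count stayed at 3, but ABCC6 took the place of ABCA7. Without centring or without a filter on low values, 1 member was higher and 6 were lower, and the members' median turned from 0.20 to -0.38 and -0.37. With the female choroid plexus as the reference, 1 member was lower in place of 3, and ABCC1 and ATP8A1 no longer passed. In the female against the male, 1 member (ATP8B4, on 2 counts) was lower with a pseudocount of 0.1 TPM in place of 0. In the proximal tubule, 1 member was higher and 25 were lower without centring or without a filter, and 2 were higher with a cut-off of 5 TPM, in place of 7 and 15. ABCG2 was higher under every alternative run for that comparison. With a cut-off of 5 TPM, 19 members were detected in the male, 18 in the female, 17 in the sorted and 3 in the proximal tubule library, and 6 in the last at 1 TPM or 5 with mitochondrially encoded genes kept. TMEM30A over its P4-ATPases was 0.44, 0.53 and 0.48 in the male, female and sorted libraries with ATP9A and ATP9B added, and 0.12, 0.15 and 0.14 on expected counts. It was 1.15, 1.36 and 2.27 without ATP11A. In the proximal tubule it was 0.87 on expected counts and 7.81 without ATP11B. The order of the 3 choroid plexus libraries on this ratio thus depends on the setting. Of the other results, 12 medians moved and 24 kept their value within the limit set. The cause of these changes was not tested beyond the settings themselves. Shares of all genes were given above for the main settings and without centring only. The other counts thus do not tell a move of the members from a move of all genes. Depth limits ABCB11, ATP8B4 and ABCG2 in the choroid plexus and every member under 100 counts in the proximal tubule.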
